A study of Mus musculus with 16 samples.

Results

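The 10 genes described here encode the enzymes that make and rearrange disulfide bonds in the endoplasmic reticulum (ER): P4hb, Pdia3, Pdia4, Pdia5, Pdia6, Txndc5, Txndc11, Erp44, Dnajc10 and Ero1lb. They were taken by symbol from the deposited gene count tables, which list 46882 entries, and all 10 were found and all 10 passed the filter on low counts. In the ER lumen, protein disulfide isomerases (PDIs) accept and donate disulfides through thioredoxin-like domains, and an oxidase of the Ero1 family, which is recharged by oxygen, returns them to the oxidised state. Mucins depend on this chemistry, because the gel-forming mucin MUC2 is rich in cysteines and forms disulfide-linked dimers and larger multimers before secretion, which makes the intestinal goblet cell a heavy user of the pathway.

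The mice were of the RedMUC298trTg line, 6 to 8 weeks old, a transgenic reporter line whose goblet cells carry the red fluorescent protein mCherry. The promoter that drives the transgene is not given in the sources used here. Live cells of the isolated intestinal epithelium were sorted into mCherry-positive goblet cells and mCherry-negative remaining epithelial cells, from the distal colon (DC) and from section 8 of the small intestine (Si8), with a C57Bl6 mouse as the negative control of the gate. This gave 4 groups of 4 bulk RNA libraries: DC.GC and DC.EC, the goblet and other epithelial cells of the distal colon, and Si8.GC and Si8.EC, those of the small intestine. All groups carry the transgene, and the labels name no treatment. RNA of goblet cells was purified on MinElute columns and that of other cells on Mini columns, so effects of the column and of the sort cannot be told apart. Whether each library stands for its own animal is not stated, and the p-values therefore describe the spread between libraries, which may be technical.

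Total counts per library ranged from 11915081 to 18530171 in DC.GC, 14886439 to 17693513 in DC.EC, 37439139 to 40533313 in Si8.GC and 30839377 to 41075589 in Si8.EC. Levels are in CPM, a count relative to its library's total, on totals scaled by TMM, a scaling that sets aside the genes that differ most between libraries, and each ± on a level is the SD over 4 libraries. The sorts carried their defining markers. The summed level of 7 goblet markers was 29436 to 32672 CPM in DC.GC against 178 to 211 CPM in DC.EC, and 106774 to 254311 CPM in Si8.GC against 255 to 638 CPM in Si8.EC. Of other cell types, 6 Paneth cell markers summed to 12098 to 32299.6 CPM in Si8.GC against 660.2 to 1762 CPM in Si8.EC, and 3 markers of deep crypt secretory cells to 1395 to 2079 CPM in DC.GC against 18.6 to 35.7 CPM in DC.EC, so these moved with the goblet sort, and their part in the results below was not tested. In DC the same Paneth markers summed to 35.1 to 38.9 CPM in DC.GC against 0.578 to 1.19 CPM in DC.EC. They thus moved with the colon goblet sort too, at far lower levels than in Si8.GC. The Paneth defensin Defa24 had no count in any DC library. Plasma cells also make much of this folding machinery. In DC, 7 plasma and B cell markers summed to 0.680 to 1.59 CPM in DC.GC against 0.654 to 2.05 CPM in DC.EC. In Si8 they summed to 3.29 to 4.84 CPM in Si8.GC against 28.9 to 74.6 CPM in Si8.EC. The plasma cell genes Mzb1 and Tnfrsf17 were at 0 in DC.GC, but had only 4 and 2 counts over the DC.EC libraries. Single markers of this list moved in opposite directions. Of 3 tested, 1 was called higher and 1 lower in goblet cells of each region. Derl3 had 63 counts over the DC.GC libraries against 14 in DC.EC, and Jchain 3 against 56.

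The first comparison asked which of these enzymes were raised in goblet cells relative to the other cells of the same epithelium. In both regions 9 of the 10 genes were higher in goblet cells, and Ero1lb, an ER oxidase, did not pass the test in either. The calls were made with edgeR's quasi-likelihood test at a Benjamini-Hochberg adjusted p under 0.05 over 16001 genes, of which 27.8% were called higher in DC.GC than in DC.EC, 33.1% higher in Si8.GC than in Si8.EC, and 18.6% higher in goblet cells of both regions. The median log2 fold change of the 10 genes was 1.55 in DC and 0.98 in Si8, beside medians of 0.03 and 0.03 over all tested genes. For the same 9 genes every goblet library lay above every other-cell library of its region, a separation that 26.7% of tested genes showed in this direction in DC and 26.7% in Si8. In DC 8 of the genes rose by a log2 fold change of at least 1, and in Si8 5 did, against 9.16% and 8.92% of tested genes. In bulk samples, fewer cells of a type and less RNA per cell cannot be told apart.

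**Figure D1:**
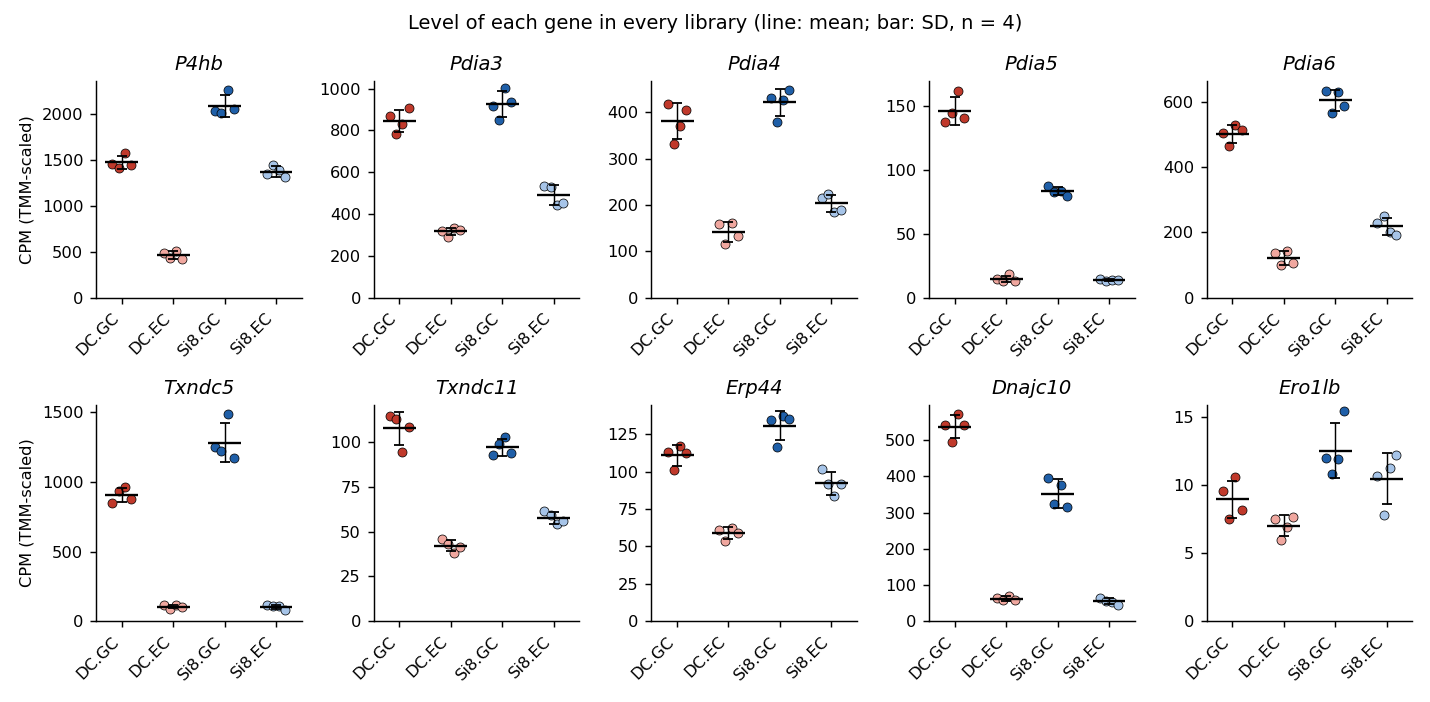
Level of each of the 10 genes in every library, in CPM on TMM-scaled totals (linear axes from 0, a scale per gene), for DC.GC, DC.EC, Si8.GC and Si8.EC; points are libraries, the line is the mean and the bar the SD (n = 4). Goblet libraries lie above the other-cell libraries of their region for 9 genes, and Ero1lb overlaps.

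The largest goblet effects belonged to 3 genes, Pdia5, Dnajc10 and Txndc5. Pdia5 (chr16:35397312-35490873, minus strand) encodes a PDI family member whose clients are little known. Its level was 137, 144, 162 and 140.4 CPM in the DC.GC libraries, against 14.9, 13.3, 18.2 and 12.6 CPM in DC.EC. In Si8.GC it was 87.2, 82.3, 83.2 and 79.6 CPM, against 14.6, 12.7, 13.4 and 13.9 CPM in Si8.EC. The sorts did not overlap in either region, and the log2 fold change was 3.31 ± 0.10 (SE) in DC (9.88-fold, adjusted p = 1.7e-15) and 2.61 ± 0.10 in Si8 (6.09-fold, adjusted p = 3.5e-14). Dnajc10 (chr2:80315466-80354043, plus strand) encodes ERdj5, a reductase with a J domain that calls in the ER chaperone BiP and cuts wrong disulfides before degradation. It stood at 541, 495, 572 and 541 CPM in DC.GC, against 63.5, 57.8, 70.5 and 58.7 CPM in DC.EC. The Si8.GC libraries had 396, 323, 376 and 316 CPM, against 64.9, 56.3, 52.9 and 44.7 CPM in Si8.EC. These are rises of 8.58-fold in DC (log2 3.10 ± 0.11, adjusted p = 2.4e-14) and 6.45-fold in Si8 (log2 2.69 ± 0.11, adjusted p = 1.6e-13).

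Txndc5 (chr13:38500079-38528824, minus strand) encodes ERp46, a PDI with several thioredoxin-like domains that introduces disulfides rapidly into unfolded chains. It was at 848, 935, 962 and 880.2 CPM in DC.GC, against 115, 89.6, 116 and 99.9 CPM in DC.EC, a rise of 8.60-fold (log2 3.10 ± 0.12, adjusted p = 4.7e-14). In Si8.GC it reached 1250.2, 1221, 1484 and 1173 CPM, against 114, 113, 110.0 and 83.4 CPM in Si8.EC, a rise of 12.2-fold (log2 3.61 ± 0.12, adjusted p = 1.3e-14). It was thus the steepest of the 10 genes in Si8, and its other-cell level was nearly the same in both regions, 105 ± 12.9 CPM in DC.EC and 105 ± 14.6 CPM in Si8.EC. In the annotation its exons share 311 bp with an antisense gene, Gm31834, and 224 bp with Bmp6 on the other strand. The strand setting of the counting is not given in the sources used here, and Bmp6 had 342 counts over all 16 libraries, against at least 1384 counts of Txndc5 in each library.

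The classical isomerases rose by smaller factors. Pdia6 (chr12:17266545-17284770, plus strand), which encodes P5, a partner of BiP in disulfide formation, had 504, 464, 529 and 513 CPM in DC.GC, against 137, 101, 143 and 107 CPM in DC.EC. Its Si8.GC libraries had 635, 567, 629 and 587 CPM, against 228, 249.8, 202 and 192 CPM in Si8.EC. Pdia6 rose 4.12-fold in DC and 2.77-fold in Si8 (adjusted p = 8.0e-12 and 7.1e-10), the largest change of this group in each region. Pdia3 (chr2:121413775-121438687, plus strand) encodes ERp57, which works with calnexin and calreticulin on glycoproteins. Its level was 869, 784, 829 and 905 CPM in DC.GC, against 316, 292, 333 and 324 CPM in DC.EC, and 915, 852, 1000.4 and 937 CPM in Si8.GC, against 536, 527, 444 and 451 CPM in Si8.EC. Pdia4 (chr6:47796141-47813430, minus strand) encodes ERp72, found in chaperone complexes with BiP and GRP94. It ranged over 332 to 418 CPM in DC.GC against 116 to 160.4 CPM in DC.EC, and over 379 to 448 CPM in Si8.GC against 186 to 224 CPM in Si8.EC. Pdia3 and Pdia4 rose almost alike, by log2 1.42 ± 0.09 and 1.42 ± 0.11 in DC and by 0.92 ± 0.09 and 1.05 ± 0.11 in Si8.

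P4hb (chr11:120560298-120573253, minus strand) encodes PDI itself, the most abundant isomerase of most cells and also a subunit of collagen prolyl 4-hydroxylase and of the microsomal triglyceride transfer protein. Its level was 1457, 1407, 1569 and 1441 CPM in DC.GC, against 479.6, 428, 511 and 424 CPM in DC.EC, a rise of 3.19-fold (log2 1.67 ± 0.09, adjusted p = 3.4e-12). In Si8.GC it was 2033, 2001, 2262 and 2052 CPM, against 1340.0, 1444, 1388 and 1309.7 CPM in Si8.EC, a rise of 1.52-fold (log2 0.61 ± 0.08, adjusted p = 3.8e-06). The goblet libraries were above the others in both regions, but the Si8.EC libraries already reached the range of DC.GC.

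Of the remaining enzymes, 2 rose and 1 did not pass. Txndc11 (chr16:11074911-11134650, minus strand) encodes a membrane-bound thioredoxin-like protein known for its part in the maturation of dual oxidases. It ranged over 94.3 to 115 CPM in DC.GC against 38.3 to 45.7 CPM in DC.EC, and over 92.9 to 103 CPM in Si8.GC against 54.5 to 61.6 CPM in Si8.EC, rises of 2.55-fold and 1.68-fold (adjusted p = 1.9e-11 and 6.2e-08). Erp44 (chr4:48193323-48279558, minus strand) encodes a chaperone that cycles to the early Golgi and retrieves unassembled proteins, the Ero1 oxidases among them. It ranged over 101 to 117 CPM in DC.GC against 53.7 to 62.3 CPM in DC.EC, and over 116 to 137 CPM in Si8.GC against 83.5 to 102 CPM in Si8.EC, rises of 1.88-fold and 1.42-fold (adjusted p = 8.8e-09 and 1.6e-05). Ero1lb (chr13:12565874-12611396, plus strand), the Ero1 oxidase best known from pancreatic cells, had 9.57, 7.54, 10.6 and 8.16 CPM in DC.GC, against 7.51, 5.96, 6.89 and 7.67 CPM in DC.EC. In Si8.GC it had 12, 10.8, 11.9 and 15.4 CPM, against 10.6, 7.82, 11.2 and 12.2 CPM in Si8.EC. The sorts overlapped in both regions, and the log2 differences of 0.35 ± 0.16 in DC (adjusted p = 0.0653, unadjusted 95% interval 0.02 to 0.68) and 0.26 ± 0.14 in Si8 (adjusted p = 0.115, interval −0.04 to 0.56) did not pass. The DC result varied with the fit: it passed without DC.GC replicate 11 (log2 0.43, adjusted p = 0.038). With 1 library left out at a time its log2 difference ran from 0.25 to 0.43. Over all alternative fits the adjusted p ran from 0.0187 to 0.239. The pseudogene Gm18562, which is not in the count tables, is 98.0% identical to Ero1lb over 921 bp, so its reads could be split in part.

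**Figure D2:**
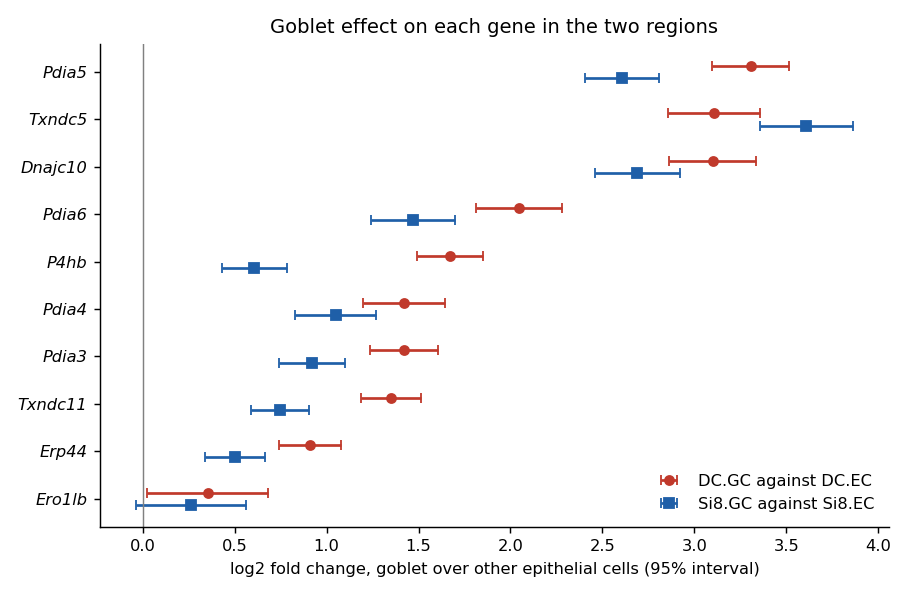
Log2 fold change of goblet over other epithelial cells for each gene, in the distal colon (red circles) and in section 8 of the small intestine (blue squares), with unadjusted 95% intervals from edgeR's quasi-likelihood fit. Pdia5, Txndc5 and Dnajc10 lie farthest right in both regions, and Txndc5 is the one gene whose blue square lies to the right of its red circle.

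Promoters were searched for the sequences through which ER stress factors act, because 9 of the genes rose together. The ER stress element (CCAAT, 9 unspecified bases, then CCACG: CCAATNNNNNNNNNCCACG), known from ER chaperone genes and bound by NF-Y with ATF6 or XBP1, and the core TGACGTGG of the XBP1-bound unfolded protein response element were sought on both strands in the 250 bases upstream of each start in the RefSeq table (GRCm38.p6). All 10 genes matched the table. For Pdia4 and Erp44 the bases just downstream of the listed starts were not found in an annotated transcript of the gene, so their windows are less certain. Of its 32851 upstream windows, 0.113% held the first motif and 0.563% the second. Counted per gene, since a gene can have several starts, 0.179% and 0.946% of the 11200 tested genes in the table held them. 4 of the 10 genes had a match, and these windows are shown with the fixed bases of the motif in capitals. CCACG, the end of the first motif, also lies in the complement of TGACGTGG. The Pdia6 window is chr12:17266461-17266539 on the plus strand, and its element covers positions -98 to -80 relative to the start site. Ero1lb at chr13:12565652-12565730, plus strand, holds the element in the reverse direction, at -201 to -183. The first of 2 listed starts of Txndc11, at chr16:11134597-11134664, and the third of 3 listed starts of Txndc5, at chr13:38528015-38528082, both on the minus strand, hold TGACGTGG.
Pdia6: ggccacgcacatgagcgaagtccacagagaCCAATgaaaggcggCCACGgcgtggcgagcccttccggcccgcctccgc
Ero1lb: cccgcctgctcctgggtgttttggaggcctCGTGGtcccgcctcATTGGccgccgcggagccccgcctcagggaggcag
Txndc11: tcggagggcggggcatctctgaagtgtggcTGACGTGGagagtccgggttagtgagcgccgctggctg
Txndc5: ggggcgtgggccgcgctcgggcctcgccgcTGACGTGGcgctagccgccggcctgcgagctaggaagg
A match is a description of letters, not of binding. Of the genes with the ER stress element, Pdia6 rose 4.12-fold in DC and Ero1lb did not pass the test. In the windows of Pdia5 and Dnajc10 neither the ER stress element nor TGACGTGG was present. Among the genes around the pathway the ER stress element was present in 3 of 8 ER chaperone genes, Hspa5, Hsp90b1 and Dnajc3. It was also present in 2 of 7 partner genes, Canx and Calr. It was found in 0 of 9 other PDI family genes, 0 of 9 oxidases and peroxidases and 0 of 7 ER stress regulators. The same held for 0 of 5 ER selenoproteins, 0 of 6 thioredoxin and glutathione genes and 0 of 3 mucus protein genes. TGACGTGG was found in 0 genes of these lists.

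The effect of the sort was then compared between the regions. For 7 of the 10 genes the goblet effect was larger in DC and for 1 it was larger in Si8 by the interaction term of the same fit, beside 15.6% and 16.5% of tested genes in these directions. P4hb differed most, by a log2 of 1.07 ± 0.12 (adjusted p = 1.0e-06). Pdia5 (0.70 ± 0.13), Txndc11 (0.60 ± 0.11), Pdia6 (0.57 ± 0.15), Pdia3 (0.50 ± 0.12), Dnajc10 (0.41 ± 0.15) and Erp44 (0.41 ± 0.11) followed, with adjusted p from 2.3e-04 for Txndc11 to 0.0398 for Dnajc10. Txndc5 ran the other way, at −0.50 ± 0.16 (adjusted p = 0.0176). Pdia4 (0.37 ± 0.15, adjusted p = 0.0629, interval 0.06 to 0.68) and Ero1lb (0.09 ± 0.21, adjusted p = 0.78, interval −0.35 to 0.54) did not pass. The call on Dnajc10 is weak: it was lost without any one of DC.EC replicates 10, 12 and 17, DC.GC replicates 9, 13 and 18, Si8.GC replicates 4 and 8 and Si8.EC replicates 1 and 3, with log2 differences of 0.31 to 0.51 over the 16 libraries left out in turn. Erp44 lost its call without DC.EC replicate 12 (log2 0.30, adjusted p = 0.0627), and Pdia4 passed without DC.EC replicate 10 or 14, DC.GC replicate 11 or Si8.EC replicate 5, with adjusted p of 0.0378 to 0.0453.

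The regions were also compared directly, first in the other epithelial cells. Between DC.EC and Si8.EC 7 genes were lower in DC and 0 higher, beside 33.6% of tested genes called lower and 33.3% higher, and all 7 had every DC.EC library below every Si8.EC library, as did 29.9% of tested genes. Markers of other cell types moved with this contrast: 6 lymphocyte markers summed to 6.41 to 7.51 CPM in DC.EC against 213 to 331 CPM in Si8.EC, and 6 Paneth markers to 0.578 to 1.19 CPM in DC.EC against 660.2 to 1762 CPM in Si8.EC. Their part in the result was not tested. P4hb was the most unequal, 461 ± 41.8 CPM in DC.EC against 1370.4 ± 58.8 CPM in Si8.EC (log2 −1.57 ± 0.09, adjusted p = 3.8e-12). The others were Pdia6 (−0.84), Erp44 (−0.65), Pdia3 (−0.63), Ero1lb (−0.57), Pdia4 (−0.52) and Txndc11 (−0.45), with adjusted p of at most 0.00264. The 3 genes with the largest goblet effects did not pass: Txndc5 (log2 0.00 ± 0.11, interval −0.23 to 0.24), Pdia5 (0.11 ± 0.10, interval −0.09 to 0.32) and Dnajc10 (0.20 ± 0.11, interval −0.03 to 0.42). Between the goblet sorts, 2 genes were higher in DC.GC and 5 lower, beside 30.6% and 31.5% of tested genes. For 2 genes every DC.GC library lay above every Si8.GC library and for 4 below, as for 28.3% and 28.9% of tested genes. Pdia5 (log2 0.81 ± 0.09, adjusted p = 1.6e-07) and Dnajc10 (0.61 ± 0.10, adjusted p = 4.9e-05) were higher in DC.GC than in Si8.GC. P4hb (−0.51 ± 0.08), Txndc5 (−0.50 ± 0.11), Ero1lb (−0.48 ± 0.15), Pdia6 (−0.27 ± 0.11) and Erp44 (−0.24 ± 0.08) were lower, with adjusted p of 3.4e-05, 6.0e-04, 0.00834, 0.0373 and 0.0132.

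These comparisons across regions depend on how totals are scaled and on the tables they come from. The mitochondrially encoded genes were at 0 counts in all DC libraries and took 3.19% to 8.36% of the counts in Si8, and 6 mucus protein genes took 3.96% to 4.50% in DC.GC against 12.1% to 22.3% in Si8.GC. Each region has its own count table, and whether both tables were made alike is not stated, so region and table cannot be told apart in any comparison of DC with Si8. On unscaled totals the median of all genes moved by 0.34 between the goblet sorts, the values of Pdia3, Pdia4, Pdia6 and Erp44 turned positive without passing (0.22, 0.20, 0.08 and 0.11), and P4hb, Txndc5 and Ero1lb kept a negative sign but lost their calls. Between the other sorts, Pdia4, Txndc11 and Ero1lb kept a negative sign on unscaled totals without passing, and Pdia5 and Dnajc10 passed as higher in DC.EC (log2 0.39 and 0.46). The larger goblet effect of Txndc5 in Si8 had an adjusted p of 0.0859 on unscaled totals, and that of Dnajc10 in DC 0.0552. For Dnajc10 this interaction also lost its call with a filter of at least 1 CPM in at least 4 libraries (adjusted p = 0.0633). With the mitochondrially encoded genes left out its adjusted p was 0.0694. Without Si8.GC replicate 8 the calls between the goblet sorts fell to 4, since Pdia6, Erp44 and Ero1lb no longer passed (adjusted p = 0.0688, 0.0524 and 0.0504). With 1 goblet library left out at a time, Pdia6 passed only without DC.GC replicate 13, Erp44 was also lost without DC.GC replicate 11 (adjusted p = 0.0531), and Txndc11 passed without DC.GC replicate 13 (log2 0.20). Dnajc10 passed between the other sorts without Si8.EC replicate 1 (log2 0.30). The calls on P4hb, Txndc5, Pdia5 and Dnajc10 between the goblet sorts held with each of the 8 goblet libraries left out in turn.

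Across the 4 groups the genes fell into a few orders. These orders are of TMM-scaled levels, and on unscaled totals 5 of the 10 genes kept theirs. P4hb, Pdia3, Pdia4, Pdia6 and Erp44 ran from Si8.GC through DC.GC and Si8.EC to DC.EC. In this order Si8.GC and DC.GC overlapped for Pdia3, Pdia4 and Erp44, DC.GC and Si8.EC overlapped for P4hb and Erp44, and no other neighbours overlapped. Txndc11 had DC.GC and Si8.GC overlapping at the top. Pdia5 and Dnajc10 shared the order DC.GC, Si8.GC, DC.EC, Si8.EC, in which only the 2 lowest groups overlapped. Txndc5 ran Si8.GC, DC.GC, DC.EC, Si8.EC, and again only the 2 lowest overlapped. Ero1lb overlapped at each step. Over the 16 libraries, with each gene centred on its own mean log2(CPM + 0.5), the profiles of Pdia3 and Pdia4 were the closest pair of the 10 (root mean square difference 0.100), followed by Pdia5 and Dnajc10 (0.146).

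Per length of merged exons, the make-up of the group also differed between the sorts. This length joins all annotated exons of a gene and can exceed that of the transcript expressed. Comparisons of 1 gene with another on this scale are therefore approximate. The summed level of the 10 genes was 1484 ± 56.3 CPM per kb in DC.GC against 418 ± 38.3 in DC.EC, and 1799 ± 106 in Si8.GC against 852 ± 47.6 in Si8.EC. P4hb made the largest part of this sum in all 4 groups, 34.6% ± 0.865 in DC.GC against 38.5% ± 1.05 in DC.EC, and 40.6% ± 0.682 in Si8.GC against 56.3% ± 2.05 in Si8.EC. Pdia3 came second in all 4, with means of 16.4% to 24.2%. The third place went to Txndc5 in both goblet sorts and to Pdia4 in both other sorts. Txndc5 took 13.6% ± 0.942 in DC.GC against 5.60% ± 0.223 in DC.EC, and 15.8% ± 0.922 in Si8.GC against 2.74% ± 0.290 in Si8.EC. Dnajc10 took 7.23% ± 0.154 in DC.GC against 2.996% ± 0.0887 in DC.EC, and 3.92% ± 0.352 in Si8.GC against 1.28% ± 0.154 in Si8.EC. Ero1lb was the lowest everywhere, with means of 0.0905% to 0.253%. The ratio of P4hb to Txndc5 per length was 2.55 ± 0.138 in DC.GC against 6.90 ± 0.433 in DC.EC, and 2.57 ± 0.145 in Si8.GC against 20.8 ± 2.71 in Si8.EC. The 2 goblet sorts thus shared a ratio that their neighbours did not, as a description of levels with no test.

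**Figure D3:**
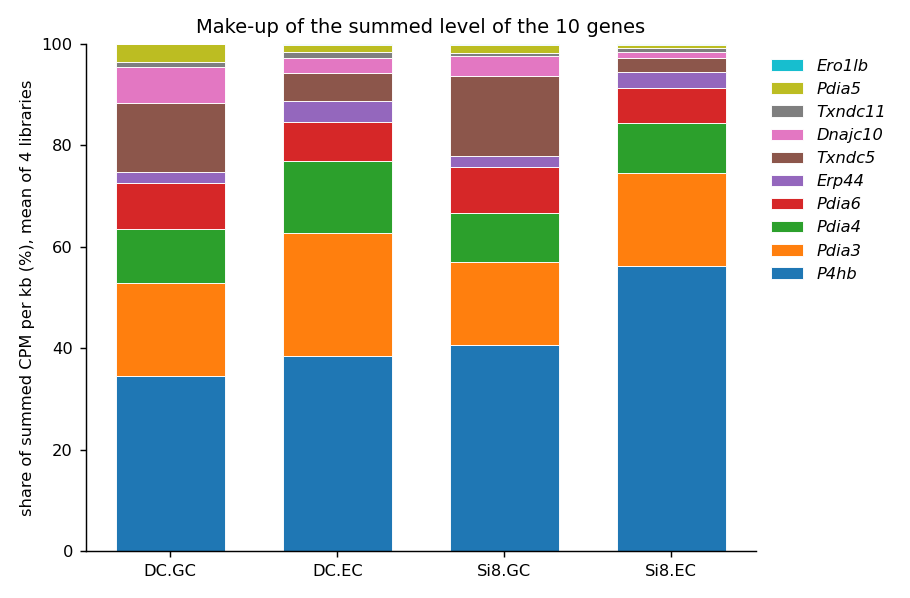
Share of each gene in the summed CPM per kb of merged exons of the 10 genes, in percent, as the mean of 4 libraries for DC.GC, DC.EC, Si8.GC and Si8.EC. P4hb is the largest block in every bar, and the Txndc5 and Dnajc10 blocks are wider in the goblet bars, 13.6% and 7.23% in DC.GC against 5.60% and 2.996% in DC.EC.

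P4hb was read beside the genes of its partner subunits. Mttp, the large subunit of the triglyceride transfer protein that loads lipoproteins in enterocytes and needs P4hb to stay soluble, was at 2.63 ± 0.341 CPM in DC.GC and 3.10 ± 0.532 CPM in DC.EC, and at 162 ± 16.9 CPM in Si8.GC against 1231 ± 168 CPM in Si8.EC (log2 −2.92 ± 0.11, adjusted p = 6.7e-14). Si8.EC, the mCherry-negative sort with the higher P4hb, was the group with the most Mttp. The higher level in Si8.EC was not particular to P4hb. Of 10 ER chaperone genes 9 were called lower in DC.EC than in Si8.EC and 1 higher, beside 33.6% and 33.3% of tested genes. A link between the levels of P4hb and Mttp was not tested. The ratio of Mttp to P4hb per length was 0.0358 ± 0.00191 in Si8.GC and 0.416 ± 0.0706 in Si8.EC, and 0.000829 ± 0.000137 in DC.GC and 0.00310 ± 0.000378 in DC.EC. P4ha2, a catalytic subunit of collagen prolyl 4-hydroxylase, rose 5.33-fold in DC.GC to 9.37 ± 1.04 CPM, against 1.74 ± 0.465 CPM in DC.EC (adjusted p = 9.1e-08). In Si8 it was at 2.62 ± 0.551 CPM in Si8.GC and 1.86 ± 0.690 CPM in Si8.EC, a difference that did not pass (log2 0.50 ± 0.24, adjusted p = 0.0695). The lectin chaperones that recruit Pdia3 are calreticulin and calnexin, the products of Calr and Canx. Calr rose 2.41-fold in DC and 1.54-fold in Si8 (adjusted p = 2.2e-08 and 1.2e-04), and Canx rose 1.53-fold in DC (adjusted p = 7.4e-06) and had a log2 difference of −0.18 ± 0.09 in Si8 that did not pass (adjusted p = 0.0769). Tapbp, tapasin, which pairs with Pdia3 in loading MHC class I, was lower in goblet cells of both regions, by log2 −0.92 ± 0.12 in DC and −0.53 ± 0.12 in Si8 (adjusted p = 1.6e-06 and 5.4e-04). Of the 7 partner genes 6 were tested: 3 rose and 1 fell in DC, and 2 rose and 2 fell in Si8. Over all tested genes 27.8% were called higher and 27.9% lower in DC, and 33.1% higher and 31.8% lower in Si8, so the Si8 counts of this list are near the background.

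**Figure D4:**
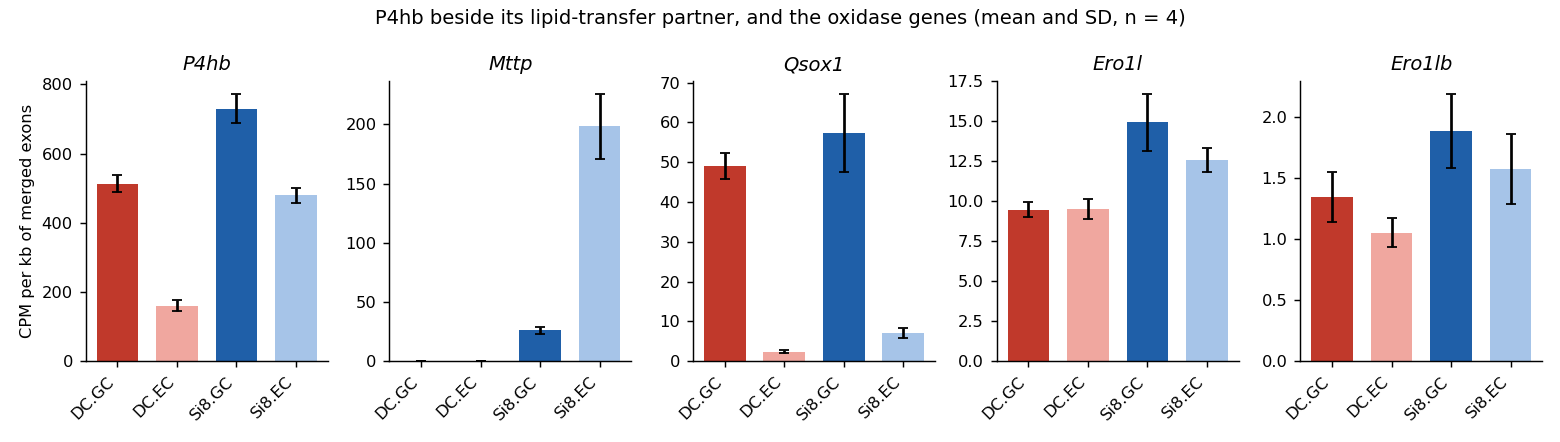
Mean level in CPM per kb of merged exons (bars; error bars are SD, n = 4) of P4hb, its partner Mttp, and the oxidase genes Qsox1, Ero1l and Ero1lb in DC.GC, DC.EC, Si8.GC and Si8.EC, each on its own linear axis from 0. Mttp is highest in Si8.EC, P4hb is highest in Si8.GC, Qsox1 is high in the goblet sorts, and the Ero1l and Ero1lb bars of the sorts lie close to each other within a region.

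The transcripts of the oxidase genes were read next. Oxidase activity and the redox state of the ER were not measured here. Ero1l, the widely expressed Ero1 oxidase, was at 50.1 ± 2.498 CPM in DC.GC against 50.2 ± 3.31 CPM in DC.EC (log2 0.00 ± 0.08, adjusted p = 0.976, interval −0.18 to 0.17), and 1.18-fold higher in Si8.GC, at 78.9 ± 9.29 CPM, than in Si8.EC, at 66.6 ± 3.99 CPM (adjusted p = 0.0127). It exceeded Ero1lb per length by 7.15 ± 1.13 times in DC.GC, 9.15 ± 1.69 in DC.EC, 8.06 ± 1.48 in Si8.GC and 8.25 ± 1.88 in Si8.EC. Qsox1, a sulfhydryl oxidase of the Golgi and secreted fluids that joins a thioredoxin domain to an oxidase domain, rose far more. It was at 407 ± 26.6 CPM in DC.GC against 20.3 ± 2.41 CPM in DC.EC (20.04-fold, log2 4.32 ± 0.14, adjusted p = 5.5e-15), and at 476 ± 80.4 CPM in Si8.GC against 59.1 ± 10.1 CPM in Si8.EC (8.05-fold, log2 3.01 ± 0.13, adjusted p = 3.6e-13). Per length Qsox1 exceeded Ero1l in both goblet sorts, by 5.19 ± 0.433 times in DC.GC and 3.83 ± 0.272 in Si8.GC, and was below it in both other sorts, at 0.260 ± 0.0444 in DC.EC and 0.566 ± 0.0943 in Si8.EC. Prdx4, the ER peroxiredoxin that uses hydrogen peroxide to oxidise PDIs, rose 1.37-fold in DC and 1.69-fold in Si8 (adjusted p = 0.0171 and 3.0e-04). Of the 9 oxidases and peroxidases 7 rose in DC and 0 fell, and 8 rose in Si8 and 1 fell. Of all tested genes 27.8% were called higher and 27.9% lower in DC, and 33.1% higher and 31.8% lower in Si8. Vkorc1l1, a quinone-reducing relative of the vitamin K reductase, had the smallest called rise in DC, 1.18-fold. Gpx8, the gene that fell in Si8, is also among the 7 that rose in DC, and both calls rest on few counts. It had 7 counts over the 4 Si8.GC libraries against 25 over the 4 Si8.EC libraries, and 30 over the 4 DC.GC libraries against 3 over the 4 DC.EC libraries.

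Other PDI family members gave a mixed picture. Of 12 genes 9 were tested, 5 rose and 0 fell in DC, and 5 rose and 0 fell in Si8. The shares over all tested genes were 27.8% higher and 27.9% lower in DC, and 33.1% higher and 31.8% lower in Si8. Agr2, the isomerase that goblet cells require for mucin folding, rose 19.8-fold in DC and 68.9-fold in Si8 and reached 3366 ± 193 CPM per kb in DC.GC and 3431 ± 403 in Si8.GC, above the summed level of the 10 genes in both. Tmx1, a membrane-bound isomerase, had the smallest called rise in each region, 1.49-fold in DC and 1.42-fold in Si8.

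The chaperones and regulators that work with these enzymes moved in the same direction. All 10 ER chaperone genes rose in goblet cells of both regions, as did 18.6% of all tested genes. Their medians were 1.22 in DC and 0.73 in Si8 on the log2 scale. Hspa5, which encodes BiP, rose 2.16-fold in DC and 1.65-fold in Si8, and Hsp90b1, which encodes GRP94, 2.17-fold and 1.48-fold. Hyou1, a nucleotide exchange factor for BiP, had the largest rise in DC (2.98-fold), Sil1, another such factor, the largest in Si8 (2.75-fold), and Ganab, the catalytic subunit of glucosidase II, the smallest in both (1.504-fold and 1.17-fold). All 10 ER stress regulators also rose in both regions, beside the same 18.6% of all tested genes. The transcription factor Xbp1 rose 3.51-fold in DC and 1.82-fold in Si8, and Ern2, the stress sensor of mucous epithelia, 9.18-fold and 79.8-fold. Creb3l4, an ER-bound transcription factor, had the largest rise in DC (42.4-fold), and Atf6b the smallest in both regions (1.32-fold and 1.18-fold). Each change named here had an adjusted p of at most 0.0166. Muc2, the main gel-forming mucin of the gut, was at 10033 ± 576 CPM in DC.GC and 39439.9 ± 17348 CPM in Si8.GC, against 39.9 ± 6.71 CPM in DC.EC and 54.1 ± 26.9 CPM in Si8.EC. The goblet sorts thus differed 3.93-fold in Muc2, against 1.42-fold in P4hb and 1.41-fold in Txndc5, all higher in Si8.GC. Ero1lb, Pdia6 and Erp44 were also higher in Si8.GC, by smaller factors. Pdia5 and Dnajc10 were instead higher in DC.GC, by 1.76-fold and 1.52-fold, and Pdia3, Pdia4 and Txndc11 did not pass. On unscaled totals the calls on P4hb and Txndc5 were lost.

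**Figure D5:**
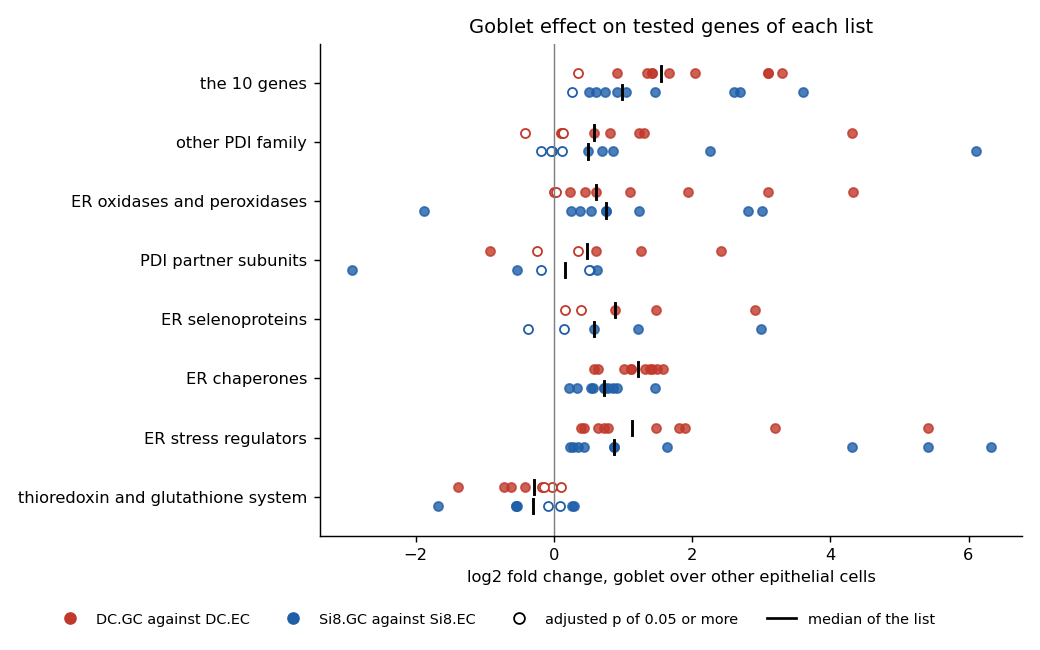
Log2 fold change of goblet over other epithelial cells for the tested genes of each list, in the distal colon (red) and in section 8 of the small intestine (blue); filled points have an adjusted p under 0.05 and black ticks mark the median. The 10 genes have medians of 1.55 in DC and 0.98 in Si8, and the thioredoxin and glutathione list −0.29 and −0.31.

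Finally, the gene outside the group with the most similar profile was found for each of the 10, among 9139 tested genes that averaged 10 CPM or more, as the smallest root mean square difference of centred log2(CPM + 0.5) over the 16 libraries. For P4hb this was Hyou1 (0.133), the chaperone gene named above, and for Ero1lb Sel1l (0.154), an adaptor of ER-associated degradation. For Pdia3 it was Tars (0.0781), a threonyl-tRNA synthetase, and for Pdia4 Spcs3 (0.108), a signal peptidase subunit. Pdia6 was nearest to Ckap4 (0.169), a membrane protein that shapes ER sheets, and Erp44 to Hspa13 (0.0893), an Hsp70-like ER protein. Txndc5 was nearest to Lrrc26 (0.231), an accessory subunit of BK potassium channels, and Txndc11 to Rbm15b (0.0975), an RNA-binding protein. Pdia5 was nearest to Cxxc5 (0.187), a zinc finger protein, and Dnajc10 to Asph (0.184), an ER-resident aspartyl/asparaginyl hydroxylase. For scale, the spread of a gene about its own mean on this measure ran from 0.344 for Ero1lb to 1.69 for Txndc5.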

How the data were processed

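Sorted cells from 16 libraries were profiled by stranded total RNA sequencing after ribosomal RNA removal, read from both ends, per the labels' protocols. The authors deposited read counts per gene in a table for each region, and these counts were used as deposited. FastQC 0.11.2 and STAR 2.4.0f are listed in the submitters' processing notes, as are HTSeq 0.6.1p1, DESeq2 1.14 and the genome build mm10. The sources used here give neither their parameters nor the strand setting. A deposited table of normalised counts was not used here. 4 entries with a repeated symbol were left out, and 27 symbols turned into dates by a spreadsheet are not named, so the selenoprotein gene of that kind in the lists has no value.

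Groups of 4 libraries came from the labels. All 16 libraries entered 1 edgeR 4.0.16 fit (R 4.3.3; TMM, filterByExpr by group, no covariate, robust quasi-likelihood). 16001 genes passed the filter, with calls at an adjusted p (Benjamini-Hochberg) below 0.05. Standard errors were derived from each log2 fold change and its F statistic. The fit was also tested on simulated data. The alternatives were DESeq2 1.42.0, other scalings and filters, fits on the compared groups alone, genes left out of the totals, and each library left out in turn. The labels share no replicate numbers between groups. Lengths and coordinates are from GENCODE M21 (GRCm38, which is mm10), with near-identical transcripts sought by blastn 2.17.0, and promoters from RefSeq (GRCm38.p6). Named genes outside the 10 were 12 fixed ones, the called genes with the largest and smallest change per list and region, and the nearest profile per gene. The 10 genes, the lists and the tests were chosen with earlier results of these data known. Counts per library set the precision: Ero1lb, with the fewest, had 92 to 553 counts per library and P4hb, with the most, 6616 to 78135.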

Additional observations from a re-analysis of the deposited data

Results flagged for a closer look

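Among the 40 sets of 4 libraries (10 genes in 4 groups), 2 held a library whose gap to the next took more of the range than Dixon's 95% limit allows, where chance flags about 1 in 20 sets. Txndc5 in Si8.EC was at 83.4 CPM in replicate 7, against 110.0 to 114 CPM in the other Si8.EC libraries, a gap of 0.861 of the range. Erp44 in Si8.GC was at 116 CPM in replicate 4, against 134 to 137 CPM in the other Si8.GC libraries, a gap of 0.855 of the range. The goblet effect differed between the regions by the interaction term for 8 genes. The log2 difference, DC minus Si8, was 1.07 for P4hb, 0.70 for Pdia5, 0.60 for Txndc11, 0.57 for Pdia6, 0.50 for Pdia3, 0.41 for Dnajc10 and 0.41 for Erp44, all larger in DC, and −0.50 for Txndc5, larger in Si8.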

How the results depend on the processing

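No paired analysis was possible because the groups share no replicate numbers. Whether neighbouring sample numbers stand for both sorts of 1 animal is not stated. The counts of the 10 genes called were 9, 9, 7, 7 and 8 in the goblet contrast of the colon, that of the small intestine, the regional contrast of goblet cells, the regional contrast of other cells, and the interaction. Leaving out 1 library at a time gave 9 to 10, 9 to 9, 4 to 8, 7 to 8 and 6 to 9. Asking also for a log2 fold change of at least 1 left 8, 5, 0, 1 and 1. Of all tested genes 27.8% were called higher and 27.9% lower in the first of these contrasts, and 33.1% and 31.8% in the second. The third had 30.6% and 31.5%, the fourth 33.3% and 33.6%, and the interaction 15.6% and 16.5%. Taken over both directions, the 7 calls in each regional contrast are thus near the background. By direction, 2 were higher and 5 lower in DC.GC than in Si8.GC, and 0 higher and 7 lower in DC.EC than in Si8.EC. Rises of at least log2 1 in goblet cells were called for 9.16% of tested genes in the colon and 8.92% in the small intestine. On library totals without TMM 3 genes were called between the goblet sorts, all higher in DC, where Pdia3, Pdia4, Pdia6 and Erp44 turned positive without passing (0.22, 0.20, 0.0791 and 0.11); the median of all genes moved by 0.34 there and by 0.27 between the other sorts. In Si8 goblet against other cells, 160 of 160 single-gene results under the alternatives kept direction and call, and in DC 157 of 160, the exceptions being Ero1lb passing in 3. Between the goblet sorts 141 of 160 kept both, between the other sorts 147 of 160, and for the difference of effects 208 of 230; the cause was not tested. Other values that changed sign belonged to results that passed in neither fit: between the other sorts, Txndc5 was −0.0312 with DESeq2 size factors, −0.0311 in DESeq2, −0.0264 without the filter and −0.0844 to 0.0946 with 1 library left out, and Pdia5 was −0.00398 to 0.179 with 1 library left out. The interaction of Ero1lb was −0.0444 to 0.213 with 1 library left out. The order of the 4 groups by mean was kept on unscaled totals for 5 of 10 genes. In 87 of 87 alternative fits the number of genes called over all genes stayed within 1.5 times that of the fit described. Depth limits Ero1lb most, and the DC libraries have fewer counts than the Si8 ones.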

Other observations

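In the list of 8 cytosolic and mitochondrial thioredoxin and glutathione genes, 0 rose and 4 fell in goblet cells of DC, and 2 rose and 4 fell in Si8, beside 27.8% of tested genes higher and 27.9% lower in DC and 33.1% higher and 31.8% lower in Si8. Glrx, the cytosolic glutaredoxin, fell most in both regions, to 15.3 ± 1.54 CPM in DC.GC against 39.8 ± 4.26 CPM in DC.EC (log2 −1.39 ± 0.11, adjusted p = 1.4e-09) and to 39.9 ± 3.65 CPM in Si8.GC against 128 ± 15.1 CPM in Si8.EC (log2 −1.68 ± 0.10, adjusted p = 3.4e-11). Gclm, a subunit of the enzyme that starts glutathione synthesis, had the smallest called fall in DC (log2 −0.42 ± 0.10, adjusted p = 0.00124), and mitochondrial thioredoxin Txn2 the largest called rise in Si8 (log2 0.30 ± 0.08, adjusted p = 0.0048).

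Of 6 ER selenoprotein genes, whose products carry selenocysteine, 5 had values, and 3 rose and 0 fell in each region. Over all tested genes 27.8% were called higher and 27.9% lower in DC, and 33.1% higher and 31.8% lower in Si8. Selm rose most, to 110.3 ± 8.27 CPM in DC.GC against 14.7 ± 1.68 CPM in DC.EC (7.50-fold, adjusted p = 8.8e-15) and to 75.4 ± 4.43 CPM in Si8.GC against 9.42 ± 1.06 CPM in Si8.EC (8.02-fold, adjusted p = 9.2e-15). Selk had the smallest called rise, 1.85-fold in DC and 1.502-fold in Si8. All 6 genes for disulfide-rich mucus proteins rose in both regions; they mark the sorted cells, so their change is no independent result. The trefoil peptide Tff3 had the smallest rise of these in DC, 73.3-fold. Retnlb had 316 to 645 counts in the DC.GC libraries against 0 to 3 in DC.EC, and 610 to 1524 in Si8.GC against 3 to 19 in Si8.EC.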
